A study of Mus musculus with 2 samples.

Results

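The glycolysis and hypoxia genes followed here are 34 mouse genes, chosen by name: the glucose and lactate transporters, the enzymes that turn glucose into lactate, the oxygen-regulated factor Hif1a with the hydroxylases that set its stability, and genes known to be switched on when oxygen is short. All 34 were present among the 27998 genes of the files, under these symbols. They were read in single CD45+ cells, that is, leukocytes, from house dust mite-treated mouse skin, in every class of cells that marker genes could name. The mice were IL31RAKO mice, which lack the IL-31 receptor alpha chain, and WT C57Bl/6 mice. Both groups had mite extract ointment (Biostir, D. farinae) put on shaved back skin 2 times a week for 3 weeks, with 2% SDS applied 2 h before each dose, so neither group was untreated, and ages and sexes are not given in the labels. Dorsal neck skin of 4 mice per genotype was pooled before digestion and sorting of live CD45+ cells, giving 1 library per genotype. There was therefore no replicate check of any difference: IL31RAKO and WT below name these 2 libraries, and the mice within a pool cannot be told apart.

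Glycolysis splits glucose into pyruvate in the cytosol and yields ATP without oxygen. Pyruvate is then either burnt in mitochondria or reduced to lactate and exported. HIF-1 alpha, the protein of Hif1a, is made all the time but is marked for destruction by oxygen-using prolyl hydroxylases. When oxygen falls, or when inflammatory signals such as Toll-like receptor ligands drive it, the protein accumulates, pairs with ARNT and raises transcription of glucose transporters, most glycolytic enzymes, lactate exporters and genes for mitophagy. Activated T cells, neutrophils and inflammatory macrophages are known for high glycolysis, and healthy skin is itself mildly hypoxic. Transcript counts such as these do not measure HIF-1 alpha protein, oxygen or glucose flux.

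HIF binds a short core, ACGTG or GCGTG, which reads CACGT or CACGC on the other strand. RefSeq promoters on GRCm38.p6, from 250 bases before to 50 bases after a transcript start, were matched for 31 of the 34 genes, and those of Slc2a3, Bnip3l and Ndrg1 were missing. The core stood in 29 of the 31 (93.5%), against 46.7% of the 27025 genes with a promoter and 66.2% of 9988 such genes measured in these cells. More than 1 core stood in 24 of the 31 (77.4%), against 37.3% of the measured genes, where overlapping matches count separately and CACGTG, its own reverse complement, counts as 2. Members and all genes with several promoters were counted by the promoter with the most matches. Genes with several starts therefore had more windows in which to match. A match is a string of letters in the window and does not show binding. The promoters of Hif1a and of 3 enzymes described most below are shown 5′ to 3′ on the strand of the gene, with matched letters in capitals. They lie at chr12:73907617-73907916 (Hif1a, plus strand), chr6:125165724-125166023 (Gapdh, minus strand), chrX:106186850-106187149 (Pgk1, plus strand) and chr7:46845554-46845853 (Ldha, plus strand, 1 of 2 RefSeq starts).
Hif1a: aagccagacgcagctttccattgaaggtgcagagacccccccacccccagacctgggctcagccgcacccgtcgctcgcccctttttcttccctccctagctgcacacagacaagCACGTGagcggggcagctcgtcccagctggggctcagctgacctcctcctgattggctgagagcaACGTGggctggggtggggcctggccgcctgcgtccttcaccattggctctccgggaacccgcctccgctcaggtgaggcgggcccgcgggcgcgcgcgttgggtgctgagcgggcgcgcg
Gapdh: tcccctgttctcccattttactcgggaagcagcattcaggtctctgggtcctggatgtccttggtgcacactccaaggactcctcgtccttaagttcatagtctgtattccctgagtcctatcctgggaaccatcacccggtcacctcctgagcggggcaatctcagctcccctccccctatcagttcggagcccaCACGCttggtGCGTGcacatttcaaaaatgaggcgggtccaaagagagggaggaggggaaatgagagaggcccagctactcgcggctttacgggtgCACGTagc
Pgk1: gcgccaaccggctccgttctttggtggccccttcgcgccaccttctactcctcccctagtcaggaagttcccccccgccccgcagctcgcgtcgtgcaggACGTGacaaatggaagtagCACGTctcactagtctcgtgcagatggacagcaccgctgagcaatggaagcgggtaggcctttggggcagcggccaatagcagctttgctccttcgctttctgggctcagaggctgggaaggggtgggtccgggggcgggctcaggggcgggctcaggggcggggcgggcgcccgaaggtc
Ldha: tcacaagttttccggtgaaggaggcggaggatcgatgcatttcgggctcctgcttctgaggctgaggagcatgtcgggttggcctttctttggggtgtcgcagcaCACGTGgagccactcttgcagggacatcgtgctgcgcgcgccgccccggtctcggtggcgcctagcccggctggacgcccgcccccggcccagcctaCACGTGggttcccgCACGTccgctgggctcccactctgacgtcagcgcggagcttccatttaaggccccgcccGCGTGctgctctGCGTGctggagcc
The Ldha window held 7 matches, Hif1a and Gapdh 3 each, and Pgk1 2. The window of the other Ldha start, not shown, held 2.

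The files held 71333292 UMIs, or distinct captured transcripts, for IL31RAKO and 57000499 for WT, and 14619 IL31RAKO and 11934 WT cells passed the filters, with a median of 3181 and 2918.5 UMIs per cell. The libraries shared 247 cell barcodes, against 236.6 from chance alone. Il31ra itself gave 26 UMIs in IL31RAKO and 11 in WT cells. The position of the deletion is not given in the sources used here, and 3′ tags can come from outside a deleted part, so Il31ra does not check the labels. Marker gates that use none of the 34 genes named 20798 of the 26553 cells, and the 12 classes that reached 100 cells in both libraries held 19726 (74.3%). They are called CD4 T-like, CD8 T-like, regulatory T-like, dermal gamma-delta T-like and epidermal-type T-like cells, and T-like cells left unsplit. Those left unsplit passed more than 1 subset list, or none while having neither or both of the Cd4 and Cd8 markers. The other classes are Langerhans-like, cDC1-like and cDC2-like (type 1 and type 2 conventional dendritic) cells, monocyte-like, macrophage-like and neutrophil-like cells. Defining markers led each, for example Epcam and Cd207 in Langerhans-like cells and S100a8 and S100a9 in neutrophil-like cells. T cell receptor constant genes were not analysed here, so the T subsets rest on their other markers. Neutrophil-like cells were the shallowest class, at a median of 1259 UMIs in IL31RAKO and 1181 in WT, and Langerhans-like cells among the deepest, at 11499.5 and 9840.

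Levels are UMIs summed over the cells of a class per 1000000 UMIs of that class (CPM). Ratios are IL31RAKO over WT, with exact 95% intervals for counting error alone, which leave out variation between mice, pools and cells. A gene counts as measured in a class with 50 or more UMIs over both libraries, as higher past the fold limit where its level was at least 25% higher in IL31RAKO, and as lower past it at a ratio of 0.8 or under. Highest, lowest, every class and no class are said of these 12 classes alone, since smaller classes, basophil-like cells among them, had higher levels of some of the genes. Of 408 combinations of gene and class, 325 were measured, and 67 were past the limit higher and 27 lower in IL31RAKO. Langerhans-like cells alone gave 17 of the 67. Over all genes, the share higher ran from 7.77% in cDC2-like to 20.7% in neutrophil-like cells. The share lower ran from 11.2% in macrophage-like to 26.7% in neutrophil-like cells. Pfkm, a muscle-type phosphofructokinase, was measured in no class, and the other 33 genes in at least 1.

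**Figure D1:**
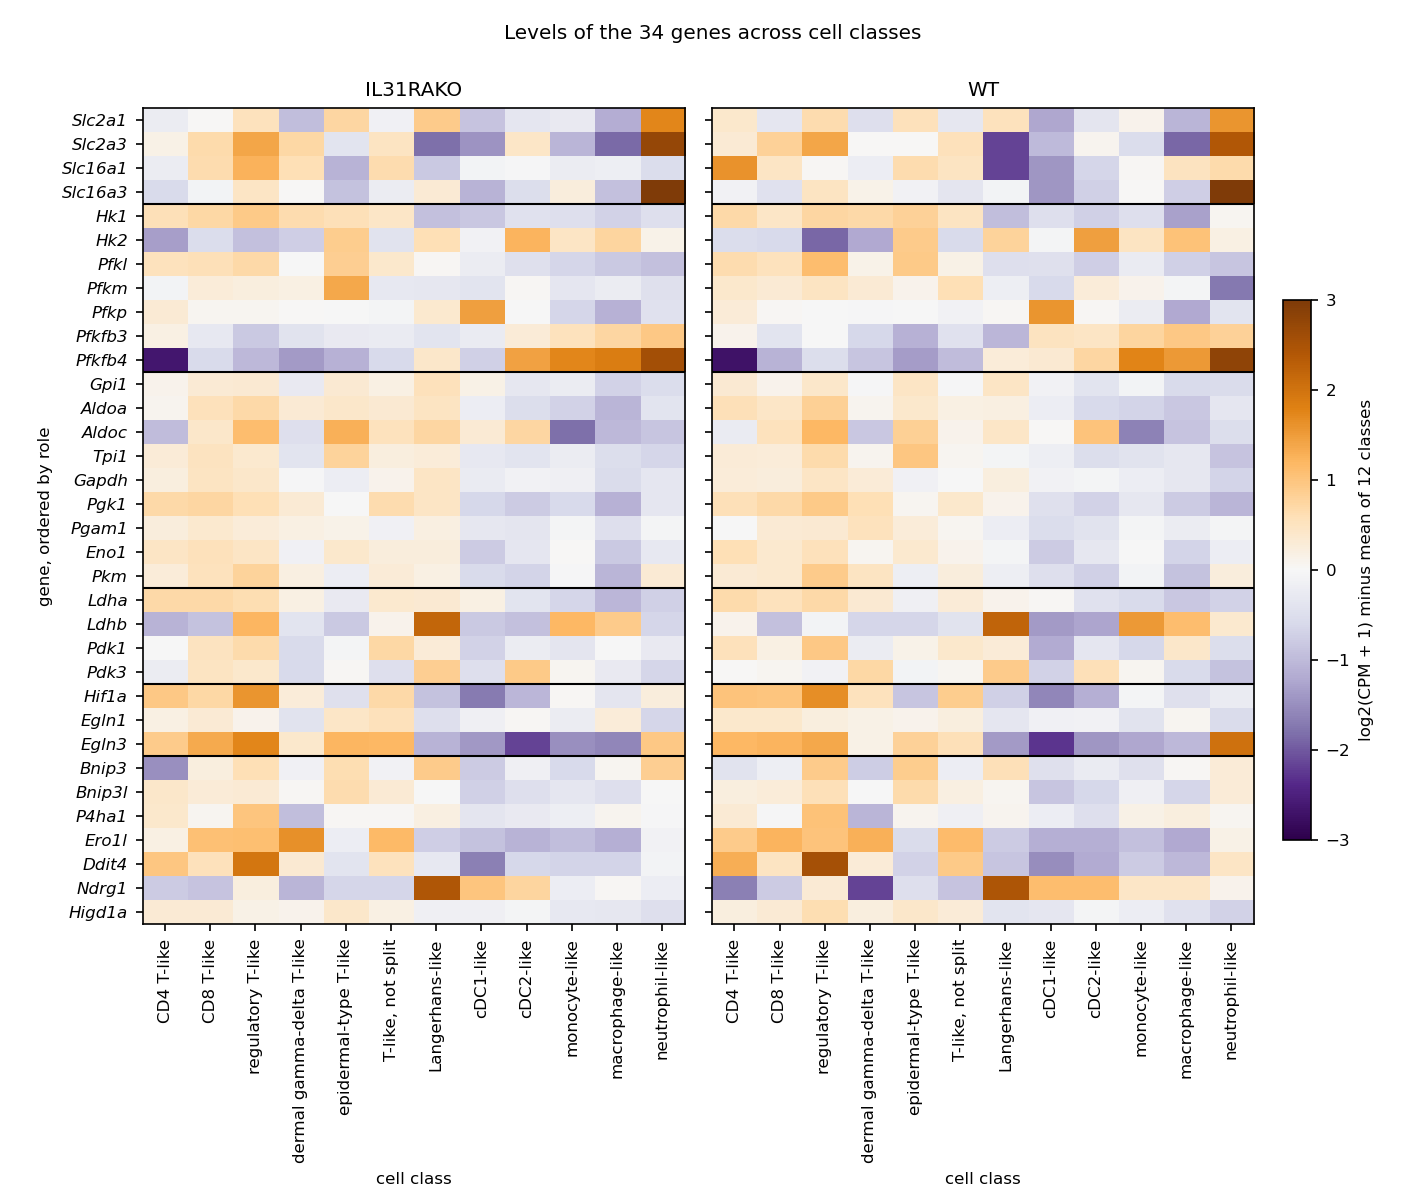
Level of each of the 34 genes (vertical, ordered by role, black lines between roles) in 12 cell classes (horizontal), in IL31RAKO (left) and WT (right). Colour gives log2(CPM + 1) minus the mean of the 12 classes in that library, so orange marks classes above the gene's mean; Slc16a3 stood out in neutrophil-like cells at 453 CPM in IL31RAKO and 407 in WT.

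Of the transporters that bring glucose in and carry lactate out, 3 were highest in neutrophil-like cells among the 12 classes. Slc16a3, the lactate exporter MCT4, stood at 453 CPM in IL31RAKO and 407 CPM in WT neutrophil-like cells, and regulatory T-like cells came next among the 12 at 62.7 and 56.6 CPM. Slc2a1, the basal glucose transporter GLUT1, stood at 94.3 and 83.6 CPM in neutrophil-like cells, against 11.8 CPM in IL31RAKO and 12.5 CPM in WT macrophage-like cells. Slc2a3, the high-affinity transporter GLUT3, stood at 81.7 CPM in IL31RAKO and 61.3 CPM in WT neutrophil-like cells, and at 2.42 and 2.17 CPM in macrophage-like cells. The WT neutrophil-like values of Slc2a1 and Slc2a3 rest on 30 and 22 UMIs. Slc16a1, the lactate carrier MCT1, was sparse in each of the 12 classes, at no more than 16.9 CPM.

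Between genotypes, Slc16a3 was higher in IL31RAKO in 6 of the 11 classes where it was measured and lower in 1. In Langerhans-like cells it had 56.4 CPM in IL31RAKO and 38.0 CPM in WT, a ratio of 1.48 (95% interval 1.15 to 1.92). In CD8 T-like cells it had 42.4 CPM in IL31RAKO and 29.5 CPM in WT, a ratio of 1.44 (1.19 to 1.73). In neutrophil-like cells, where it is most abundant, the ratio was 1.11 (0.935 to 1.33), an interval that takes in no difference. In epidermal-type T-like cells it was lower, with 23.8 CPM in IL31RAKO and 37.3 CPM in WT, a ratio of 0.637 (0.387 to 1.02). Slc2a1 was measured in 10 classes, with 7 ratios above 1, 3 of them past the limit. It was higher in CD8 T-like cells at 1.32 (1.06 to 1.66) and in Langerhans-like cells at 1.33 (1.02 to 1.72). In monocyte-like cells it was past the limit lower, at 0.789, with an interval that took in 1. Slc2a3 was higher in cDC2-like cells, at 15.8 CPM in IL31RAKO and 11.4 CPM in WT, a ratio of 1.39 (1.02 to 1.91).

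Hexokinases phosphorylate glucose on entry, and the classes differed in which form they carried. Of the UMIs from Hk2, the inducible form, and Hk1, the widespread form, Hk2 made up 80.3% in IL31RAKO and 85.1% in WT cDC2-like cells, and 78.3% and 86.8% in macrophage-like cells. In CD8 T-like cells the share was 33.7% in IL31RAKO and 36.7% in WT, and in regulatory T-like cells 24.8% and 15.1%. Epidermal-type T-like cells stood apart from the other T-like classes at 60.9% in IL31RAKO and 56.2% in WT. Capture can differ between 2 genes, so such shares are compared between classes and not read as absolute proportions. The Hk2 ratio lay below 1 in 9 of 9 classes where the gene was measured, past the fold limit in 3. It had 67.7 CPM in IL31RAKO and 91 CPM in WT cDC2-like cells, a ratio of 0.744 (0.658 to 0.842). It had 49.2 CPM in IL31RAKO and 67.5 CPM in WT macrophage-like cells, a ratio of 0.728 (0.622 to 0.855). In the remaining 7 classes the interval took in 1. With each cell thinned to 1000 UMIs the ratio was 0.911 in cDC2-like and 0.834 in macrophage-like cells, both inside the limit, and 0.804 in cDC2-like cells with clusters in place of gates.

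**Figure D2:**
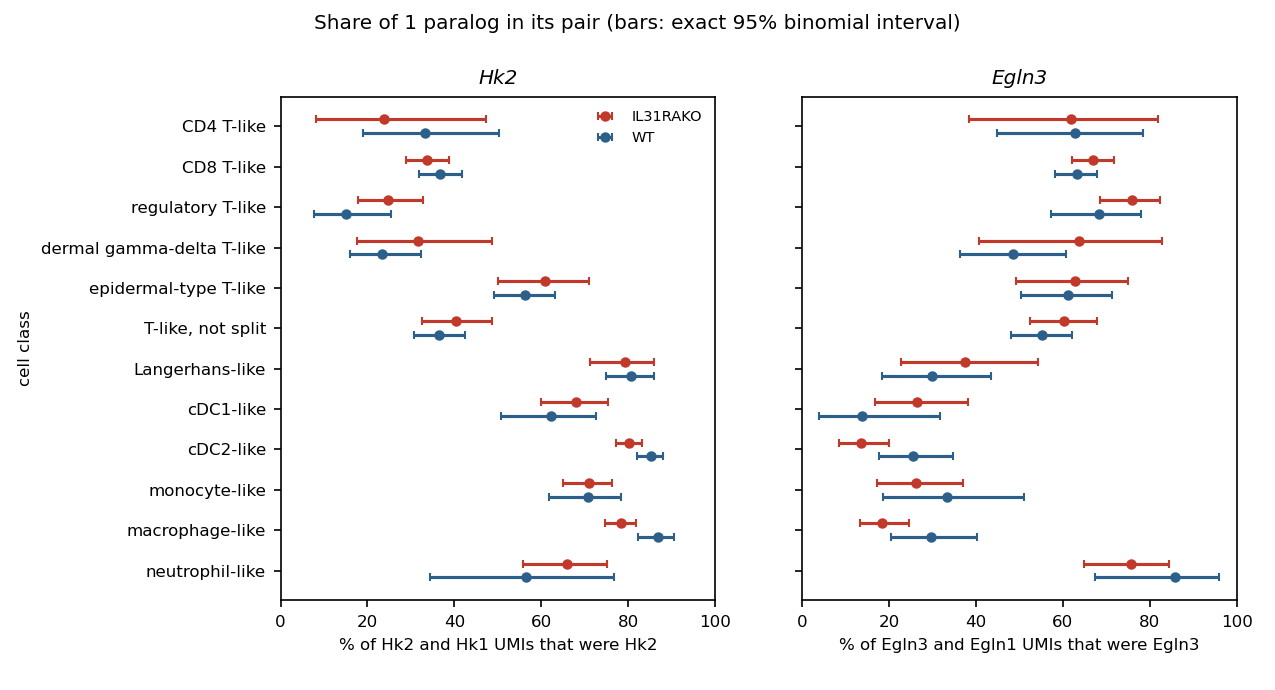
Share of Hk2 among Hk2 and Hk1 UMIs (left) and of Egln3 among Egln3 and Egln1 UMIs (right), in percent, for 12 cell classes (vertical), with IL31RAKO in red above WT in blue and exact 95% binomial intervals as bars. In cDC2-like cells Hk2 made up 80.3% in IL31RAKO and 85.1% in WT and Egln3 13.5% and 25.5%, while in regulatory T-like cells Hk2 made up 24.8% and 15.1% and Egln3 75.9% and 68.2%.

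Phosphofructokinase commits sugar to glycolysis. Pfkp, its platelet form, was highest among the 12 classes in cDC1-like cells, at 277 CPM in IL31RAKO and 278 CPM in WT (ratio 1.00, 0.895 to 1.12), and none of the other 11 passed 130 CPM in either library. Pfkl, the liver form, was higher in IL31RAKO Langerhans-like cells, at 31.8 CPM against 22.1 CPM in WT (ratio 1.44, 1.02 to 2.03). It was lower in IL31RAKO regulatory T-like cells, at 50.7 CPM against 68.2 CPM in WT (ratio 0.743, 0.563 to 0.983), and at 0.839 with clusters in place of gates. Pfkfb3 and Pfkfb4 make the signal molecule fructose 2,6-bisphosphate, which speeds phosphofructokinase. Pfkfb4 was highest in neutrophil-like cells, at 36.1 CPM in IL31RAKO and 44.6 CPM in WT, and no UMI of it was seen in CD4 T-like cells of either library. In cDC2-like cells it had 15.8 CPM in IL31RAKO and 9.90 CPM in WT, a ratio of 1.60 (1.15 to 2.24). Pfkfb3 was measured in 7 classes, with no interval that left out 1.

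The 9 enzymes of the shared trunk, from Gpi1 to Pkm, formed most of the signal. Their summed level was 6198 CPM in IL31RAKO and 6104 CPM in WT regulatory T-like cells, and 6026 and 4859 CPM in CD8 T-like cells. Among the 12 classes it was lowest in macrophage-like cells, at 2483 CPM in IL31RAKO and 2605 CPM in WT. RNA in barcodes without a cell summed to 3484 CPM in IL31RAKO and 3721 CPM in WT for the same enzymes, so macrophage-like cells lay below this free RNA in both libraries, as did cDC1-like and cDC2-like cells. The part of free RNA in these levels was not tested gene by gene. Pkm, which makes pyruvate, was at 1394 CPM in IL31RAKO and 1360 CPM in WT regulatory T-like cells and at 386 and 388 CPM in macrophage-like cells. Pgk1, the first ATP-making enzyme, was at 191 CPM in IL31RAKO and 154 CPM in WT CD8 T-like cells, against 51.6 and 55.0 CPM in macrophage-like cells, and its free RNA level was 21.1 and 16.99 CPM. Aldoc, a minor aldolase, was highest in epidermal-type T-like cells in IL31RAKO, at 44.6 CPM, and in regulatory T-like cells in WT, at 38.5 CPM. Across the 12 classes Pgk1 followed the summed trunk level closely, with a Pearson correlation of 0.94 in each library, as a description over classes that share a library and with Pgk1 itself in the sum.

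Between genotypes the trunk differed most in number of enzymes in Langerhans-like cells. Of its 9 enzymes, 8 were past the limit higher in IL31RAKO there, where 14.7% of all genes were, and Gpi1, the glucose phosphate isomerase, stood at 1.06 (0.974 to 1.16). Gapdh, the dehydrogenase of the pathway, had 1846 CPM in IL31RAKO and 1389 CPM in WT Langerhans-like cells, a ratio of 1.33 (1.27 to 1.39). Pgk1 had 157 CPM in IL31RAKO and 103 CPM in WT, a ratio of 1.53 (1.31 to 1.78), or 2.95 after thinning. Pgam1, the mutase, had 214 CPM in IL31RAKO and 146 CPM in WT, a ratio of 1.47 (1.29 to 1.67). Eno1, the enolase, was at 1.40 (1.30 to 1.502), although Eno1b, a near-identical copy with 140 UMIs in IL31RAKO and 113 in WT, may share its reads. Pkm was at 1.40 (1.32 to 1.49).

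In CD8 T-like cells 8 of 9 trunk enzymes had a ratio above 1, of which 2 were past the limit, where 8.41% of all genes were. Gapdh had 1876 CPM in IL31RAKO and 1404 CPM in WT CD8 T-like cells, a ratio of 1.34 (1.30 to 1.37). Eno1 had 783 CPM in IL31RAKO and 609 CPM in WT, a ratio of 1.29 (1.23 to 1.34), or 1.21 after thinning. Free RNA of Gapdh stood at 1205 CPM in IL31RAKO and 1325 CPM in WT. In neutrophil-like cells Gapdh had 1052 CPM in IL31RAKO and 744 CPM in WT (ratio 1.41, 1.245 to 1.61), both below the free RNA level. Pgk1 there had 89.2 CPM in IL31RAKO and 44.6 CPM in WT, a ratio of 2.00 (1.201 to 3.57) that rests on 16 WT UMIs. The 9 macrophage markers summed to 1336 CPM in IL31RAKO and 554 CPM in WT neutrophil-like cells, with 1 at 0 in WT. Of 17 measured genes of dissociation stress 0 were higher and 9 lower, against 20.7% of all genes higher and 26.7% lower, with sums of 23147 CPM in IL31RAKO and 29543 CPM in WT. The part of both lists in these ratios was not tested. In macrophage-like cells 1 of 9 trunk enzymes had a ratio above 1, and 0 were past the limit, where 13.4% of all genes were higher and 11.2% lower. Dermal gamma-delta T-like cells also had 1 of 8 above 1: Aldoa, an aldolase, at 1.24 (1.13 to 1.36), against Tpi1, the isomerase, at 0.745 (0.612 to 0.901), or 0.962 with clusters in place of gates. Cycling cells made up 7.45% of this class in IL31RAKO and 27.3% in WT; with them left out, the Gapdh ratio was 1.10, against 0.90 (0.835 to 0.969) in the whole class. Aldoa was lower in CD4 T-like cells, at 767 CPM in IL31RAKO and 1032 CPM in WT, a ratio of 0.743 (0.651 to 0.848), or 0.966 with clusters in place of gates.

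Lactate dehydrogenase sits at the branch to lactate. Ldha, the form that favours lactate, was at 933 CPM in IL31RAKO and 732 CPM in WT Langerhans-like cells, a ratio of 1.27 (1.201 to 1.35). It was at 1181 CPM in IL31RAKO and 984 CPM in WT CD8 T-like cells (ratio 1.2, 1.16 to 1.24). It was at 356 CPM in IL31RAKO and 382 CPM in WT macrophage-like cells (ratio 0.931, 0.874 to 0.992). Ldhb, the heart-type form, had enough UMIs to count as measured only in Langerhans-like, macrophage-like and monocyte-like cells. It was highest of the 12 classes in Langerhans-like cells, at 29.7 CPM in IL31RAKO and 32.8 CPM in WT. Regulatory T-like cells, with 35 UMIs in IL31RAKO and 8 in WT, fell short of the limit but came second in IL31RAKO, at 14.5 CPM. Pdk1 and Pdk3 are kinases that close pyruvate dehydrogenase and so hold pyruvate back from mitochondria. Pdk3 had 39.6 CPM in IL31RAKO and 27.9 CPM in WT CD8 T-like cells (ratio 1.42, 1.17 to 1.72), and 54.0 and 40.7 CPM in cDC2-like cells (1.33, 1.12 to 1.57), the cDC2-like ratio being 1.23 with free RNA subtracted. Its free RNA level was 57.9 CPM in IL31RAKO and 25.5 CPM in WT, and the part of free RNA in the CD8 T-like ratio was not tested. In dermal gamma-delta T-like cells Pdk3 had 18.03 CPM in IL31RAKO and 44.5 CPM in WT, a ratio of 0.405 (0.207 to 0.731), on 13 and 86 UMIs. The IL31RAKO level there lay below its free RNA. Pdk1 was lower in IL31RAKO macrophage-like cells, at 10.8 CPM against 16.5 CPM in WT (ratio 0.656, 0.470 to 0.921).

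**Figure D3:**
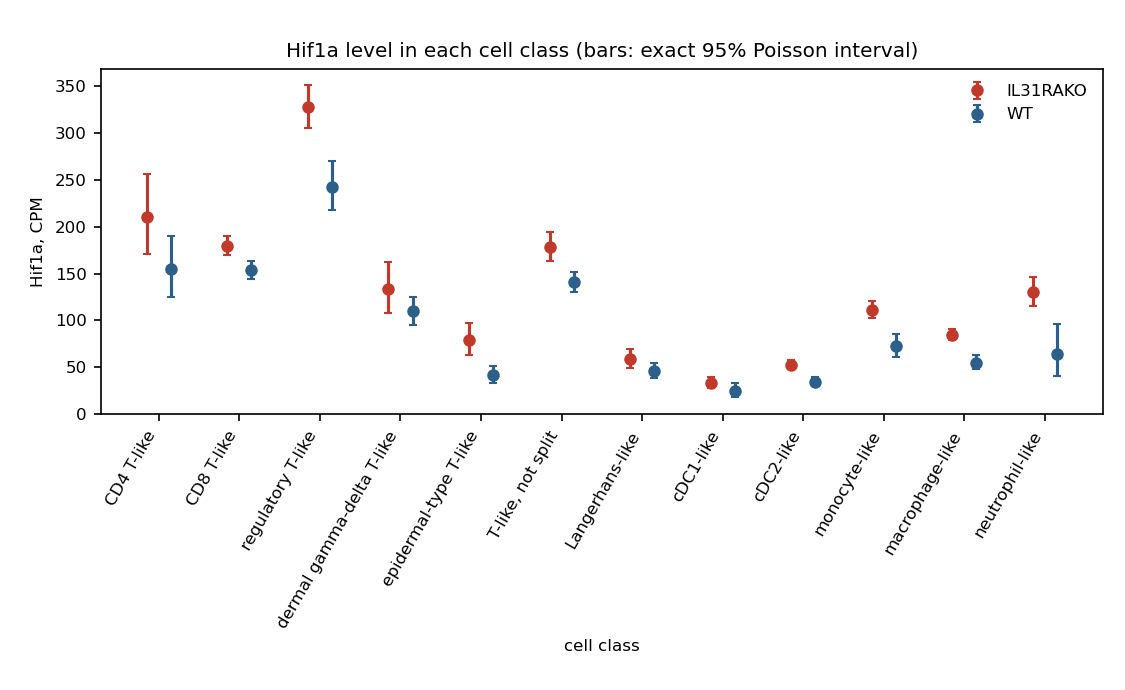
Hif1a level in CPM (vertical, from 0) in 12 cell classes (horizontal), with IL31RAKO in red left of WT in blue; points are 1 library each and bars exact 95% Poisson intervals for counting error. The IL31RAKO point lies above the WT point in all 12 classes, with regulatory T-like cells the highest of the 12 at 328 CPM in IL31RAKO and 243 CPM in WT.

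Hif1a was the member whose genotype difference ran the same way throughout: its ratio was above 1 in all 12 classes, between 1.17 and 2.03, past the limit in 10 classes and with an interval above 1 in 10. Of the 15 members measured in all 12 classes it was the only one above 1 in each, and of all 2385 genes measured in every class 51 were (2.14%). In 7 of those genes the lowest ratio was at or above that of Hif1a, itself included. Regulatory T-like cells had the highest level of the 12 classes, at 328 CPM in IL31RAKO and 243 CPM in WT (ratio 1.35, 1.19 to 1.54). CD4 T-like cells had 210 CPM in IL31RAKO and 155 CPM in WT (1.36, 1.01 to 1.82). The highest ratio was in neutrophil-like cells, with 130 CPM in IL31RAKO and 64.1 CPM in WT (2.03, 1.32 to 3.25), on 277 and 23 UMIs. Epidermal-type T-like cells had 78.8 CPM in IL31RAKO and 41.4 CPM in WT (1.90, 1.38 to 2.62). Macrophage-like cells had 84.6 CPM in IL31RAKO and 55.0 CPM in WT (1.54, 1.31 to 1.80), cDC2-like cells 52.5 and 34.2 CPM (1.54, 1.29 to 1.84), and monocyte-like cells 111 and 72.7 CPM (1.53, 1.27 to 1.85). Over all cells together Hif1a was at 110 CPM in IL31RAKO and 90.8 CPM in WT.

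Several of these levels lay near or below free RNA, in which Hif1a had 23 UMIs (121 CPM) in IL31RAKO and 22 UMIs (93.5 CPM) in WT, a ratio of 1.30 (0.690 to 2.44). Both libraries were below it in Langerhans-like, cDC1-like, cDC2-like, epidermal-type T-like, macrophage-like and monocyte-like cells. With free RNA subtracted, at a share estimated from genes each class should lack, the ratio stayed above 1 in 12 of 12 classes, from 1.21 to 2.38. Within clusters built without the 34 genes, the Hif1a ratio in macrophage-like cells was 1.75 (1.32 to 2.35) in cluster 1, the largest part of the class in WT, and 1.21 (0.903 to 1.66) in cluster 7, its largest part in IL31RAKO. In T-like cells left unsplit it was 1.26 (1.12 to 1.42) over the class but 0.775 (0.572 to 1.04) in cluster 8, the main cluster of that class in WT. After thinning it was 1.04 in cDC2-like cells and 1.12 in T-like cells left unsplit, and with clusters in place of gates 1.21 in CD4 T-like cells, all inside the limit. Over 117 values from the alternatives that can change a ratio, 114 were above 1. The other 3 were 0.996 in cDC1-like cells with each cell weighted equally, and, in dermal gamma-delta T-like cells, 0.857 after thinning and 0.931 with clusters in place of gates.

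Egln1 encodes PHD2, the main oxygen sensor, and Egln3 encodes PHD3, a HIF target itself. Egln3 made up 75.9% of their UMIs in IL31RAKO and 68.2% in WT regulatory T-like cells, 75.6% and 85.7% in neutrophil-like cells, and 13.5% and 25.5% in cDC2-like cells. Egln3 was lower in IL31RAKO neutrophil-like cells, at 29.1 CPM against 66.8 CPM in WT, a ratio of 0.435 (0.268 to 0.729). It was higher in IL31RAKO T-like cells left unsplit, at 34.5 CPM against 23.9 CPM in WT, a ratio of 1.44 (1.09 to 1.90). Egln1 was measured in 9 classes and passed the limit in none.

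The other hypoxia genes were highest in differing classes among the 12. Ndrg1, a stress-responsive protein tied to differentiation, was highest of the 12 in Langerhans-like cells, at 243 CPM in IL31RAKO and 188 CPM in WT (ratio 1.29, 1.15 to 1.45). Ero1l, an oxidase of protein folding in the endoplasmic reticulum, was highest of the 12 in dermal gamma-delta T-like cells, at 161 CPM in IL31RAKO and 123 CPM in WT (1.31, 1.04 to 1.65). In CD4 T-like cells it had 58.0 CPM in IL31RAKO and 94.4 CPM in WT (0.614, 0.373 to 0.989). Ddit4, which restrains mTORC1, was highest of the 12 in regulatory T-like cells and lower there in IL31RAKO, at 160 CPM against 226 CPM in WT (0.709, 0.609 to 0.826), or 0.841 with cells weighted equally. It was higher in IL31RAKO cDC2-like cells, at 25.8 CPM against 16.3 CPM in WT (1.59, 1.23 to 2.06), and in Langerhans-like cells, at 32.6 against 20.8 CPM (1.57, 1.11 to 2.22), levels below its free RNA at 63.2 CPM in IL31RAKO and 38.2 CPM in WT. Higd1a, a mitochondrial protein, was lower in IL31RAKO regulatory T-like cells, at 219 CPM against 297 CPM in WT (0.737, 0.647 to 0.841). Bnip3, a mitophagy receptor, was higher in IL31RAKO CD8 T-like cells, at 44.4 CPM against 31.6 CPM in WT (1.41, 1.17 to 1.68), and in Langerhans-like cells at 1.34 (1.07 to 1.66). Bnip3l, its paralog, and P4ha1, a collagen prolyl hydroxylase, were past the limit higher in no class, and P4ha1 was lower in 1, monocyte-like cells, at 0.742 (0.544 to 1.02). Of the 34 genes, 17 had their highest class in common between the libraries, near the share over all genes with 50 or more UMIs (48.7%).

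**Figure D4:**
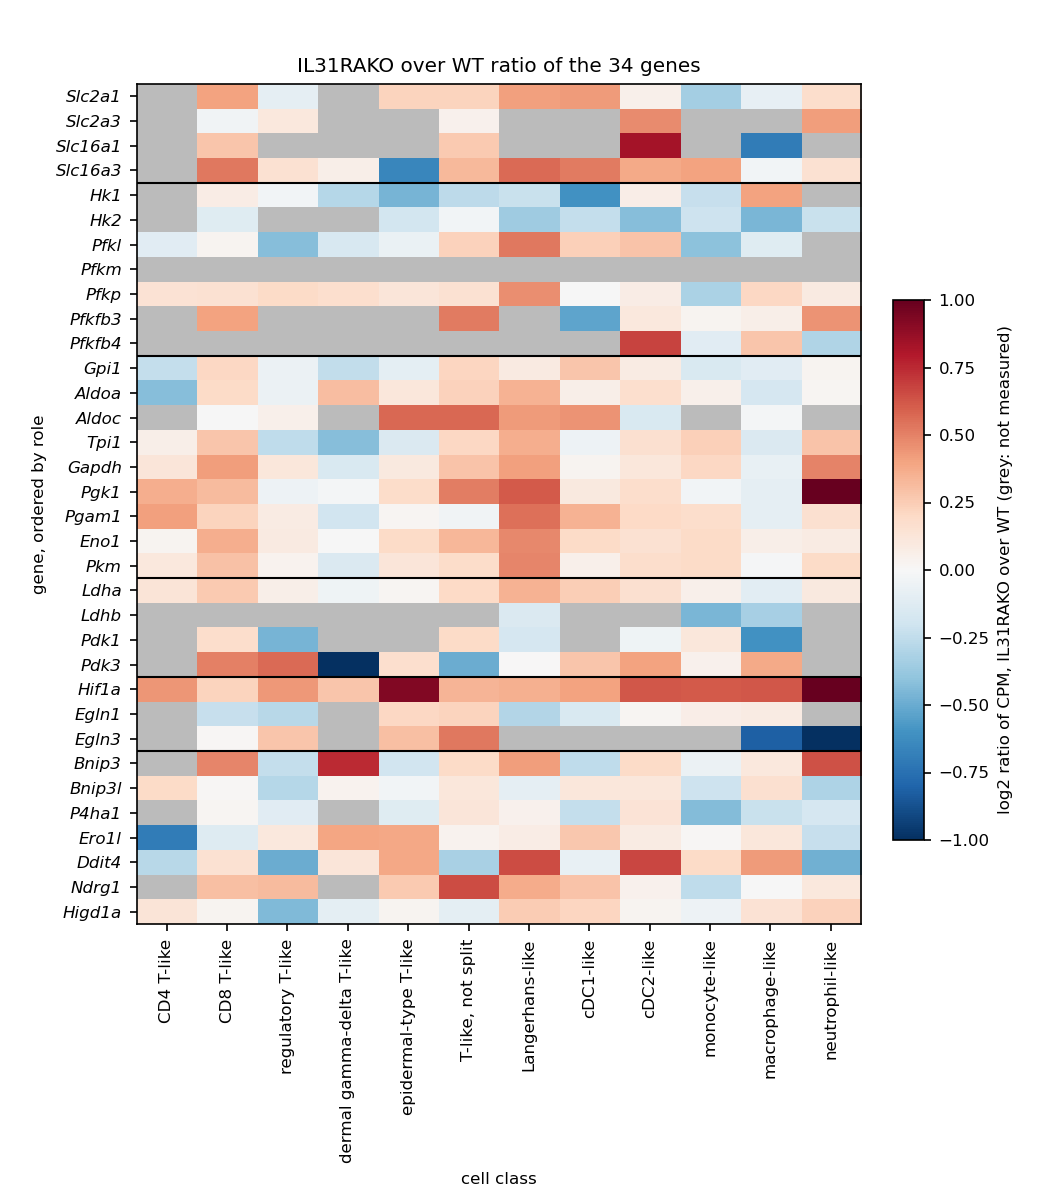
Log2 ratio of IL31RAKO over WT CPM for the 34 genes (vertical, by role) in 12 cell classes (horizontal); red is higher in IL31RAKO, blue lower, and grey not measured. The Langerhans-like column is mostly red, with 17 of 28 measured genes past the fold limit higher, and the Hif1a line is red in all 12 classes.

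Counted by class, Langerhans-like cells held the most genes past the limit: 17 of 28 measured genes were higher in IL31RAKO and 1, Hk2, lower, against 14.7% of all genes higher and 12.9% lower there. The median ratio of the members was 0.36 on the log2 scale, against 0.01 over all genes, and the summed level was 7679 CPM in IL31RAKO and 5960 CPM in WT. Within cluster 17, which holds 81.5% of these cells in IL31RAKO and 88.6% in WT, 17 of 28 were higher and 0 lower, against 17.5% of all genes higher and 12.7% lower. Cycling cells made up 19.5% of the class in IL31RAKO and 13.2% in WT, and 14 of 27 were higher without them. The marker lists differed too: the 7 neutrophil markers summed to 1387 CPM in IL31RAKO and 678 CPM in WT Langerhans-like cells with none at 0, the 9 macrophage markers to 2274 and 1671 CPM with none at 0, and the 5 Langerhans markers themselves to 8336 and 6270 CPM. The 18 genes of dissociation stress, which digestion of skin can switch on, had 1 higher and 8 lower, and summed to 8653 CPM in IL31RAKO and 10770.5 CPM in WT. The part of cycling cells, of these marker lists and of stress in the result was not tested. After thinning to 1000 UMIs per cell only 13 members were still measured, of which 7 were higher. The share of all genes past the limit was not counted without cycling cells or after thinning.

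**Figure D5:**
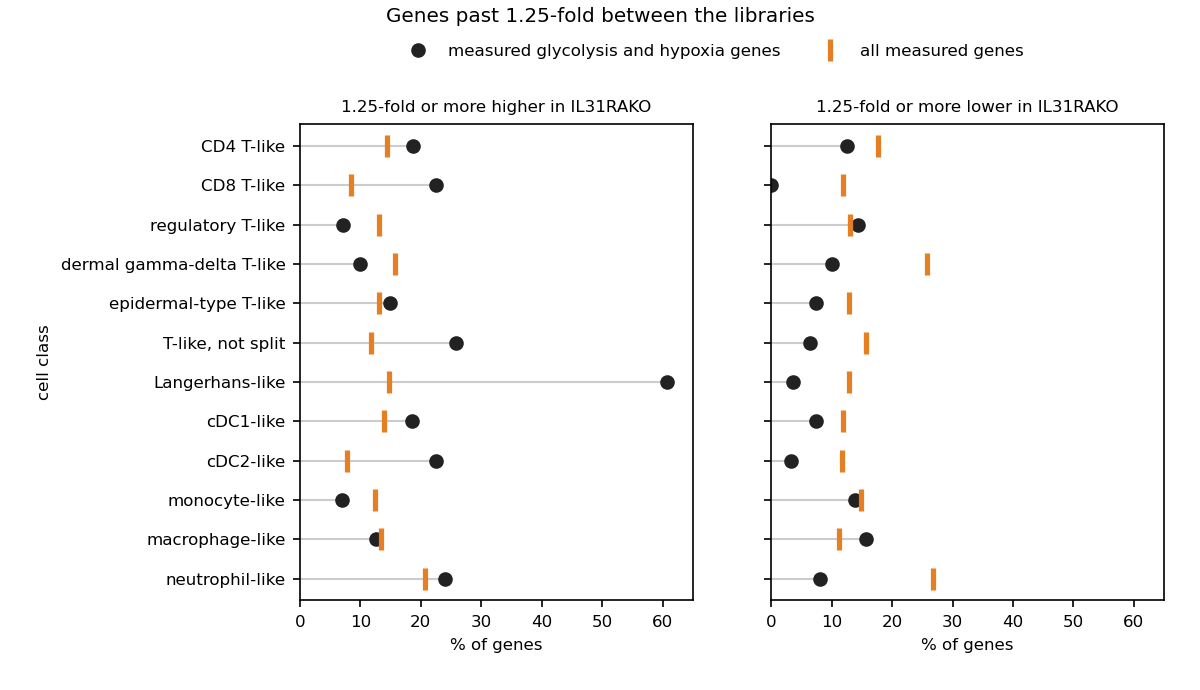
Percent of measured genes 25% or more higher (left), or at a ratio of 0.8 or under (right), in IL31RAKO, for 12 cell classes (vertical); black points are the glycolysis and hypoxia genes and orange marks all measured genes. Langerhans-like cells stand apart at 60.7% higher against 14.7% of all genes.

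In CD8 T-like cells 7 of 31 measured genes were higher and 0 lower, against 8.41% of all genes higher and 11.8% lower, with 26 of 31 ratios above 1 (44.4% of all genes). Cluster 0, the main cluster in both libraries, had 9 of 30 higher (10.9% of all genes) and 1 lower (12.6%). In T-like cells left unsplit 8 of 31 were higher (11.8% of all genes) and 2 lower (15.6%). Pgk1 was among the higher ones at 178 CPM in IL31RAKO and 125 CPM in WT (1.42, 1.26 to 1.61). That class was mixed differently in the libraries, with cluster 2 its main part in IL31RAKO (20.3% of cells) and cluster 8 in WT (30.1%). In cluster 8 the Pgk1 ratio was 1.52 (1.19 to 1.92) and in cluster 2 it was 1.67 (1.16 to 2.42). In cDC2-like cells 7 of 31 were higher (7.77% of all genes) and 1 lower (11.7%), with 28 of 31 ratios above 1 (45.8%). In the smaller cluster 13 of that class 15 of 25 ratios lay above 1, against 27 of 30 in cluster 3. The share of all genes above 1 was not counted within these clusters. Free RNA was estimated at 24.8% of UMIs in IL31RAKO and 12.4% in WT CD8 T-like cells. For cDC2-like cells the estimates were 9.17% in IL31RAKO and 15.9% in WT. Subtracting it gave 14 genes past the limit higher in CD8 T-like cells in place of 7, and 11 were with doublets left out. The share of all genes past the limit was not counted under either alternative.

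The other 8 classes were counted in the same way. In neutrophil-like cells 6 of 25 were higher (20.7% of all genes) and 2 lower (26.7%), on 277 WT cells. In cDC1-like cells 5 of 27 were higher (13.9%) and 2 lower (11.9%), in CD4 T-like cells 3 of 16 (14.4%) and 2 (17.6%), and in epidermal-type T-like cells 4 of 27 (13.1%) and 2 (12.9%). In macrophage-like cells 4 of 32 were higher (13.4%) and 5 lower (11.2%). In monocyte-like cells 2 of 29 were higher (12.4%) and 4 lower (14.9%), in regulatory T-like cells 2 of 28 (13%) and 4 (13%), and in dermal gamma-delta T-like cells 2 of 20 (15.8%) and 2 (25.8%). Ratios above 1, with the share over all genes, numbered 22 of 28 in Langerhans-like cells (50.8%), 25 of 31 in T-like cells left unsplit (45.5%), 18 of 25 in neutrophil-like cells (45.5%), 18 of 27 in cDC1-like cells (51.8%), 18 of 27 in epidermal-type T-like cells (51%) and 11 of 16 in CD4 T-like cells (49.3%). They numbered 13 of 32 in macrophage-like cells (54.2%), 15 of 29 in monocyte-like cells (47.3%), 14 of 28 in regulatory T-like cells (47.8%) and 8 of 20 in dermal gamma-delta T-like cells (43.6%). Macrophage-like cells were made up mainly of cluster 7 in IL31RAKO (38.9%) and cluster 1 in WT (46.7%). Within cluster 7 alone the median member ratio was 0.23 on the log2 scale and Gapdh stood at 1.255 (1.13 to 1.40), with 683 CPM in IL31RAKO and 545 CPM in WT, against a median of -0.02 and a Gapdh ratio of 0.952 (0.915 to 0.991) over the class. Within cluster 1 the median was 0.01 and Gapdh at 1.054 (0.979 to 1.14). By the fold limit, cluster 7 had 6 of 25 members higher (21.5% of all genes) and 4 lower (14.2%). Cluster 1 had 6 of 25 higher (14.6%) and 4 lower (11.6%). The median over all genes was not computed within these clusters. Over all cells, gated or not, 3 of 34 genes were higher (10.8% of all genes) and 1 lower (20.3%), with 17 ratios above 1 (33.5%), a comparison that also moves with the mix of classes.

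Other pathway genes were counted by the same limit, beside 14.7% of all genes higher and 12.9% lower in Langerhans-like cells, 8.41% and 11.8% in CD8 T-like cells, 7.77% and 11.7% in cDC2-like cells, and 12.4% and 14.9% in monocyte-like cells. The 17 genes of the tricarboxylic acid cycle, which burns pyruvate carbon in mitochondria, had 3 higher and 1 lower in IL31RAKO Langerhans-like cells, and 0 and 0 in CD8 T-like and cDC2-like cells. This list had 5 of 17 higher and 0 lower in regulatory T-like cells (13% and 13% of all genes). Neutrophil-like cells had 6 of 15 higher and 3 lower (20.7% and 26.7%). Dermal gamma-delta T-like cells had 0 of 16 higher and 4 lower (15.8% and 25.8%). The pentose phosphate list, which makes NADPH and ribose, had 0 of 7 higher and 1 lower in Langerhans-like cells. Among other HIF targets, 4 of 15 were higher and 1 lower in Langerhans-like cells, and 7 of 18 higher and 1 lower in monocyte-like cells. In CD8 T-like cells 4 of 17 were higher and 3 lower, and in cDC2-like cells 1 of 18 and 1. The counts were 3 of 12 and 3 in cDC1-like and 3 of 20 and 2 in macrophage-like cells. Neutrophil-like cells had 4 of 11 and 2, epidermal-type T-like cells 3 of 9 and 0, and regulatory T-like cells 0 of 13 and 1. Unsplit T-like cells had 4 of 14 and 2, and CD4 T-like cells 1 of 5 and 2. Dermal gamma-delta T-like cells had 1 of 8 and 2. All-gene shares for these classes are given above. Vegfa, the vascular growth factor, had 26.7 CPM in IL31RAKO and 11.4 CPM in WT Langerhans-like cells, a ratio of 2.35 (1.53 to 3.66). In monocyte-like cells Vegfa had 13.4 CPM in IL31RAKO and 4.58 CPM in WT (2.93, 1.45 to 6.68), on 65 and 9 UMIs. Arg1, arginase, had 20.4 CPM in IL31RAKO and 8.14 CPM in WT monocyte-like cells (2.51, 1.47 to 4.55). Gpd2, of the glycerol phosphate shuttle, had 28.4 CPM in IL31RAKO and 11.04 CPM in WT Langerhans-like cells (2.57, 1.68 to 4.01). Arnt, the partner of HIF-1 alpha, had 20.8 CPM in IL31RAKO and 11.4 CPM in WT there (1.83, 1.16 to 2.90). Mxi1, a repressor that antagonises MYC, had 34.3 CPM in IL31RAKO and 21.95 CPM in WT macrophage-like cells (1.56, 1.22 to 2.02). Bhlhe40, a HIF-regulated transcription factor, had 171 CPM in IL31RAKO and 329 CPM in WT neutrophil-like cells (0.521, 0.422 to 0.647). Hspa1a, a heat shock protein of the dissociation stress list, was lower in IL31RAKO in Langerhans-like cells, at 91.5 CPM against 199.7 CPM in WT (0.458, 0.391 to 0.536), and in macrophage-like cells, at 262 against 457 CPM (0.573, 0.538 to 0.611). Its ratio was also past 1.5-fold lower in CD4 T-like (0.224), CD8 T-like (0.488), epidermal-type T-like (0.403) and regulatory T-like cells (0.441). The same held in monocyte-like (0.464), cDC1-like (0.623) and unsplit T-like cells (0.660). Dermal gamma-delta T-like cells had 4 of 18 stress genes higher and 1 lower (15.8% and 25.8% of all genes). The part of dissociation stress in the ratios of the 34 genes was not tested.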

How the data were processed

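Raw 10x count matrices, which the authors deposited as UMI counts per gene and barcode, were the only values used. The submitters' processing notes name Cell Ranger 3.1, Seurat 3.2.2 and mm10 without giving their roles, and the labels' protocols give the 10x Single Cell 3′ v2 kit with 30000 cells loaded. Barcodes with 500 or more UMIs, 250 or more genes and under 10% mitochondrial UMIs were kept. Cells outside the T lineage were gated by marker enrichment (2 times the mean and 1.5 times the next list, with at least 2 markers seen). T-like cells had 2 or more UMIs of general T markers, at their mean share or above, and passed none of those lists. Regulatory, dermal gamma-delta and epidermal-type T-like cells needed 3 times the mean and at least 2 markers. Other T-like cells were CD8 T-like on any UMI of Cd8a or Cd8b1 without Cd4. They were CD4 T-like on any Cd4 UMI without Cd8a or Cd8b1. In all, 5755 cells (21.7%) stayed ungated, while 1418 (5.34%) lay between 2 lists. Cells between 2 lists outside the T lineage stayed ungated, as did cells with such a list and general T markers, NK-like cells excepted. T-like cells that passed more than 1 subset list were left unsplit. So were those that passed no such list and had neither or both of the Cd4 and Cd8 markers. No doublet caller was used, except as an alternative (Scrublet, which took out 11.7% of IL31RAKO and 9.54% of WT cells). Leiden clusters (scanpy 1.11.5, resolution 1.5, without the 34 genes) gave 28 groups. Free RNA came from barcodes with 10 to 50 UMIs. Counts were summed per class and library. With 1 library per group no p-value was computed. Ratios have exact conditional binomial 95% intervals (scipy 1.17.1), checked on simulated counts. The number of UMIs sets the precision, from 1795 over the 34 genes in WT neutrophil-like cells to 56219 in IL31RAKO CD8 T-like cells. UMIs are counted molecules, and the intervals cover counting error only. Named members are those whose interval lies farthest from 1, at most 5 in each direction per class, and those at a class extreme. Further members, such as Slc2a1 in CD8 T-like cells, were printed outside these rules. The 64 named ratios recomputed under the alternatives are of the first kind alone. Other pathway genes are named past 1.5-fold, at most 3 per direction and class, and a selection of these is printed. The members, the pathway lists and the gates were chosen with earlier results of these data known. RefSeq promoters were searched for the motif on both strands.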

Additional observations from a re-analysis of the deposited data

Results flagged for a closer look

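The values below were singled out because the same gene was 25% or more higher in IL31RAKO in some classes and at a ratio of 0.8 or under in others, with intervals on opposite sides of 1. With 1 library per genotype the difference between classes was not tested, and each library gives 1 value per class. Ddit4 stood at 1.57 in Langerhans-like, 1.59 in cDC2-like and 1.34 in macrophage-like cells (1.048 after thinning), and at 0.709 in regulatory T-like cells and 0.798 in T-like cells left unsplit (0.813 under median-of-ratios scaling). Pdk3 stood at 1.42 in CD8 T-like and 1.33 in cDC2-like cells, and at 0.405 in dermal gamma-delta T-like cells and 0.708 in T-like cells left unsplit (0.327 with free RNA subtracted). The 0.405 rests on 13 IL31RAKO UMIs. Free RNA of Pdk3 was at 57.9 CPM in IL31RAKO and 25.5 CPM in WT, and its part in the CD8 T-like ratio was not tested. Egln3 stood at 1.44 in T-like cells left unsplit, and at 0.568 in macrophage-like and 0.435 in neutrophil-like cells. The macrophage-like ratio was 0.144 with free RNA subtracted, and its levels, 4.15 CPM in IL31RAKO and 7.32 CPM in WT, lay below the free RNA of Egln3 at 36.8 and 21.2 CPM. Pfkl stood at 1.44 in Langerhans-like and 0.743 in regulatory T-like cells. Aldoa stood at 1.27 in Langerhans-like and 0.743 in CD4 T-like cells. Tpi1 stood at 1.29 in Langerhans-like and 0.745 in dermal gamma-delta T-like cells. Ero1l stood at 1.31 in dermal gamma-delta T-like and 0.614 in CD4 T-like cells.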

How the results depend on the processing

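Of 625 values of the 64 named member ratios under the alternatives, 575 stayed inside the counting interval and 50 did not. Of them 9, of 5 ratios inside the fold limit, crossed 1, and 32 of the 406 values of ratios past the limit came inside it, without crossing 1. No paired analysis was possible because each genotype had 1 library, and none could be left out. Gene and class combinations past the fold numbered 67 higher and 27 lower, and with a 1.5-fold limit 14 and 8, with 2 higher in Langerhans-like and 0 in CD8 T-like cells. The share of all genes past the limit was not counted under any of the alternatives, the 1.5-fold limit included. Lower combinations numbered 55 with a minimum of 10 UMIs, 58 with any UMI and 17 after thinning, which left out 1439 IL31RAKO and 1300 WT cells. For pathway genes, 125 higher and 126 lower became 39 and 53 at 1.5-fold, 206 and 198 at 10 UMIs, and 315 and 288 with any UMI; 68 were higher after thinning and 197 lower with free RNA subtracted. Members higher in CD8 T-like cells, 7 in the report, were 11 without doublets and 14 with free RNA subtracted, and those in Langerhans-like cells were 7 after thinning, which leaves fewer members measured. Over all cells, 1 member was lower, but 3 under a 5% mitochondrial limit, and 0 with cells weighted equally or at 1.5-fold. The median of CD4 T-like cells, 0.12 on the log2 scale, turned to -0.027 with cells weighted equally, -0.016 with clusters, -0.12 at 10 UMIs and -0.19 with any UMI; the cause was not tested. Stricter gates, which left 13 of 28 members higher in Langerhans-like cells, and the alternatives for Hif1a were chosen after seeing the data. T-like cells left unsplit have no cluster alternative. Depth limits the sparse genes, above all in the 277 WT neutrophil-like cells.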

Other observations

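Classes below 100 cells in a library were left out of the comparisons, and their values rest on few cells. Keratinocyte-like cells that passed the CD45 sort, 59 in IL31RAKO and 112 in WT, had 12 of 25 measured members 25% or more higher (22.8% of all genes) and 2 at a ratio of 0.8 or under (13.7%), with the 34 genes summing to 6908 CPM in IL31RAKO and 5663 CPM in WT. Pgk1 there had 175 CPM in IL31RAKO and 94.0 CPM in WT, a ratio of 1.86 (1.45 to 2.41). Pkm stood at 1.41 (1.26 to 1.58), while Hk2 stood at 0.665 (0.464 to 0.939). Cycling cells made up 23.7% of them in IL31RAKO and 10.7% in WT, and their part was not tested. Basophil-like cells, 159 in IL31RAKO and 99 in WT, had 3 of 19 higher (15.9% of all genes) and 3 lower (21.2%), and Ddit4 stood at 702 CPM in IL31RAKO and 1015 CPM in WT, a ratio of 0.691 (0.589 to 0.812). Endothelial-like cells, 40 in IL31RAKO and 70 in WT, had Hif1a at 141 CPM in IL31RAKO and 295 CPM in WT, a ratio of 0.479 (0.331 to 0.683), opposite in direction to the 12 compared classes.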
